A study of Homo sapiens with 4 samples.

Results

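Zinc finger genes of chromosome 19 were followed in 2 human pancreatic cancer cell lines, SW1990 and PANC-1, before and after X-ray radiation. Members were the genes of the deposited table named ZNF plus a number, with or without a closing letter, that lie on chromosome 19 and hold at least 50 read counts in each of the 4 libraries. This gave 128 members out of 260 chromosome 19 genes of that name pattern, 556 on all chromosomes and 58174 genes in the table. SW1990 cells were cultured in 1640 medium and PANC-1 cells in DMEM, both with fetal bovine serum. Each line gave 1 library of total RNA from unirradiated cells and 1 from cells that had received 10 Gy, and the time between radiation and harvest is not given in the sources used here. Each group is therefore 1 library of 1 established line, so a difference after radiation within a line has no replicate check, and the read test used below compares libraries and not conditions. Read counts on genes were 17851815 for unirradiated and 18305682 for irradiated SW1990, and 23323266 and 20026595 for the PANC-1 libraries. The members held 0.297% and 0.276% of these counts in SW1990, and 0.354% and 0.36% in PANC-1.

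Zinc finger proteins of this class bind DNA with rows of short modules, each of which holds a zinc ion between a pair of cysteines and a pair of histidines and touches a few bases of DNA. Most of those encoded on chromosome 19 also carry a KRAB domain, which recruits the scaffold protein TRIM28 and with it the histone methyltransferase SETDB1 and HP1 proteins, so that the bound DNA is packed into silent chromatin. Transposable elements are the best known targets, and the genes lie in clusters that grew by tandem duplication, so neighbours often resemble each other. The build of such a module is shown by the leading one of regular spacing in the coding sequences of ZNF264 and of ZNF473. ZNF264 was the member with the largest change by counts in PANC-1, and ZNF473 was one of the members that fell in SW1990. The stretches are 78 bases each, start at residue 205 of ZNF264 and residue 211 of ZNF473, and come from GENCODE release 29 transcripts. Capitals mark the codons of the cysteine pair and the histidine pair.
ZNF264: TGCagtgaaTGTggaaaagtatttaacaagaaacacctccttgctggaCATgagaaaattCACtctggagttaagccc
ZNF473: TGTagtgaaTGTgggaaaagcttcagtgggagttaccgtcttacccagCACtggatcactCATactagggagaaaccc
The frame of capitals is shared, while 33 of the 78 bases differ between these modules.

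By a pattern search of the translated coding sequences, 100 of the 128 members held a KRAB-like stretch, 26 did not and 2, the pseudogenes ZNF321P and ZNF702P, have no coding sequence. The median number of zinc finger modules was 13, with a range from 0 to 31, and ZNF91, which is known to silence SVA elements, a family of primate transposons, had the 31. Expression of the members was low. Their median FPKM (expression scaled by the authors to transcript length and library size), averaged over the 4 libraries, was 5.22 against 13.3 for the 11159 genes of the table with the same count minimum. The highest mean FPKM values among members were 43.7 for ZNF146, a protein made of finger modules with no KRAB domain, 40.1 for ZNF587, known to bind HERVK elements, 37.3 for ZNF780A, 36.3 for ZNF780B, 34.4 for ZNF460 and 30.6 for ZNF544. No member stayed under an FPKM of 1 in all 4 libraries. Exons of 36 members overlapped a counted gene on the same strand and those of 25 a gene on the opposite strand, and 26 members shared at least 10% of their 75-base stretches with another gene, so that reads of these members cannot always be assigned to a single gene.

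In SW1990, 12 of the 128 members (9.38%) changed by more than 2-fold at q under 0.001 in the test of the reads, 7 of them lower and 5 higher after radiation. Of the 11159 genes with the same count minimum, 2.72% passed these limits, and of all 17036 genes tested, 4.76% did. ZNF468 had 608 counts without and 119 with radiation. ZNF564 had 320 and 77 counts, and ZNF473 had 877 and 318. With TMM-scaled totals their log2 changes were −2.36 (95% counting interval −2.66 to −2.07), −2.06 (−2.44 to −1.70) and −1.47 (−1.66 to −1.28), so that each fell by more than the counting error. ZNF473 encodes a protein of the U7 machinery that trims histone messenger RNAs. The intervals here and below are exact Clopper-Pearson intervals and cover counting error only.

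A further 4 members fell in SW1990. ZNF524 went from 182 to 68 counts, a log2 change of −1.43 (−1.85 to −1.02). ZNF324 went from 448 to 181 counts, a log2 change of −1.31 (−1.57 to −1.06). For ZNF225 the counts were 127 and 59 and for ZNF699 they were 118 and 56, with log2 changes of −1.11 and −1.08. Among the members that rose, ZNF296, which carries no KRAB-like stretch, had 59 counts without and 171 with radiation, a log2 change of 1.53 (1.09 to 1.98). ZNF551 went from 257 to 656 counts, a log2 change of 1.35 (1.14 to 1.56). ZNF628 had 58 and 132 counts, ZNF780B 131 and 273, and ZNF766 230 and 474, with log2 changes of 1.18, 1.05 and 1.04. Both directions were thus present, and KRAB-like stretches were found in 8 of the 12. The plot of CPM values (counts scaled to library size) sets the change of each of these members in the line where it passed the limits beside its values in the other line. With a coefficient of variation of 0.2 between repeat cultures assumed in an exact edgeR test, ZNF468 alone still passed, and 6 of the 92 members that overlap no counted gene on the same strand passed the test of the reads. The share of all genes was not counted under these settings. In such bulk libraries, fewer cells that express a gene and less of its RNA per cell cannot be told apart.

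**Figure D1:**
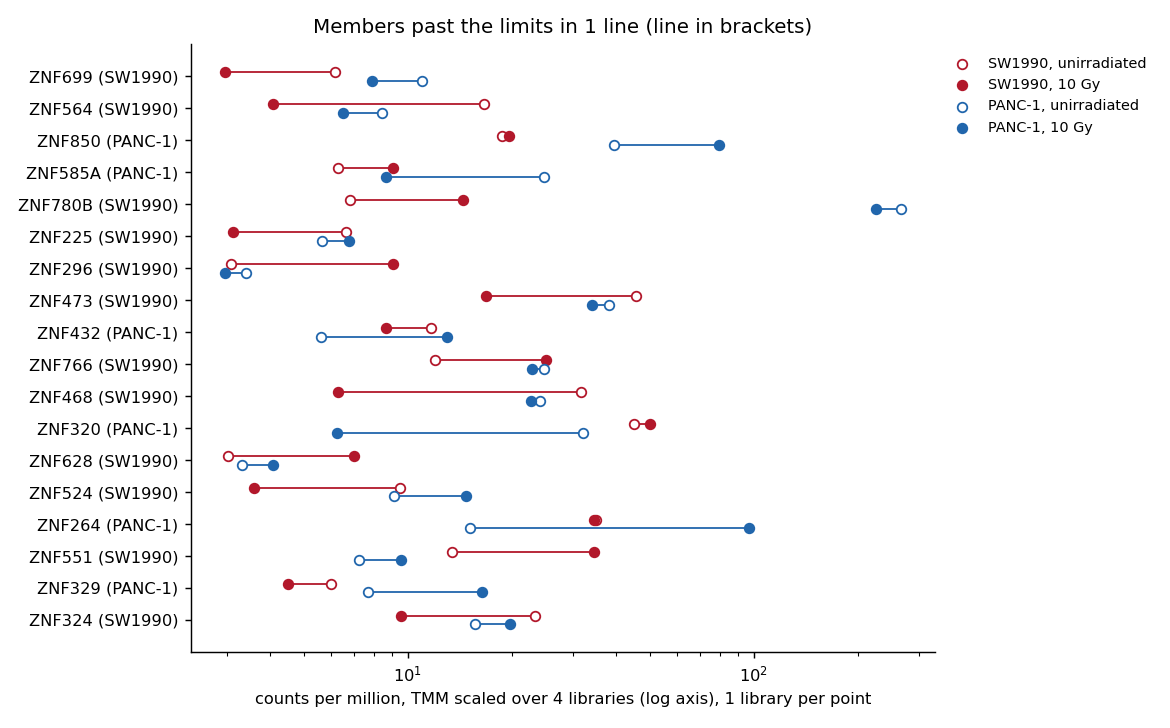
CPM, counts scaled to library size by TMM over the 4 libraries, on a log axis for the 18 members past the limits in a line (named in brackets), 1 point per library, open for unirradiated and filled for 10 Gy. ZNF780B lies far higher in PANC-1 (blue) than in SW1990 (red), and ZNF264 shows the longest line in PANC-1.

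In PANC-1, 6 of the 128 members (4.69%) passed the same limits, 2 lower and 4 higher, against 3.06% of the 11159 genes with the same count minimum and 5.22% of the 16810 genes tested. ZNF264, which lies at chr19:57191500-57222846 on the plus strand in GRCh38, had 324 counts without and 1898 with radiation, while its SW1990 counts were 673 and 656. Its log2 change was 2.68 (2.51 to 2.86) in PANC-1 and −0.04 (−0.20 to 0.11) in SW1990. ZNF320 went from 689 to 122 counts in PANC-1, a log2 change of −2.37 (−2.66 to −2.09), and held 864 and 952 counts in SW1990. ZNF585A had 529 and 169 counts, a log2 change of −1.52 (−1.78 to −1.26). ZNF432 had 120 and 254 counts, ZNF329 had 164 and 320, and ZNF850, a KRAB-like member with 29 modules, had 845 and 1557, with log2 changes of 1.21, 1.09 and 1.01. With the assumed coefficient of variation of 0.2, ZNF264 and ZNF320 still passed, and without members that overlap on the same strand 3 of 92 passed. Again, the share of all genes was not counted under these settings.

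With the fold limit at 1.5, 20 members passed in each line, or 15.6%, where 8.82% of the 11159 genes passed in SW1990 and 11.3% in PANC-1. In SW1990 the 20 were 7 higher and 13 lower, and in PANC-1 they were 10 higher and 10 lower. Among them was ZNF808, a primate gene whose loss is known to prevent pancreas development. It held 280 and 231 counts in SW1990 and 223 and 397 in PANC-1, a log2 change of 0.96 (0.72 to 1.21) in the latter. Exons of ZNF808 overlap those of ZNF701 on the same strand. ZNF555, ZNF112 and ZNF227 were among the 10 members with the largest changes in PANC-1 without passing the 2-fold limit, with log2 changes of −0.996, −0.87 and −0.86 by counts and −1.56, −0.79 and −0.43 by FPKM.

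The deposited FPKM values, which the authors derived per transcript length, gave the same direction as the counts for all 18 members past the limits, but not always the same size. In SW1990, 9 of the 12 were also past 2-fold in FPKM, and in PANC-1 2 of the 6 were, ZNF264 and ZNF432. By FPKM alone, with no test of the reads, 11 members were past 2-fold in SW1990 and 5 in PANC-1, where 2.97% and 3.27% of the 11159 genes were. ZNF264 had FPKM values of 4.83 and 11.4 in the PANC-1 libraries, a log2 FPKM change of 1.24. ZNF320 had 8.76 and 6.29, a log2 FPKM change of −0.48 where the counts gave −2.37. ZNF585A gave −0.65 in FPKM, ZNF850 0.91 and ZNF329 0.84, and in SW1990 ZNF225 gave −0.90, ZNF551 0.56 and ZNF766 0.33. Other members changed more in FPKM than in counts. In PANC-1, ZNF551 gave 1.75 in FPKM and 0.40 in counts, ZNF555 −1.56 and −0.996, and ZNF224 −1.01 and −0.81. In SW1990, ZNF567 gave −1.20 in FPKM and −0.39 in counts and ZNF180 −1.08 and −0.60. Over the 128 members, the count and FPKM changes correlated with a Pearson r of 0.85 in SW1990 and 0.76 in PANC-1, both across genes of the same libraries. They differed in sign for 26 members in SW1990 and 24 in PANC-1.

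**Figure D2:**
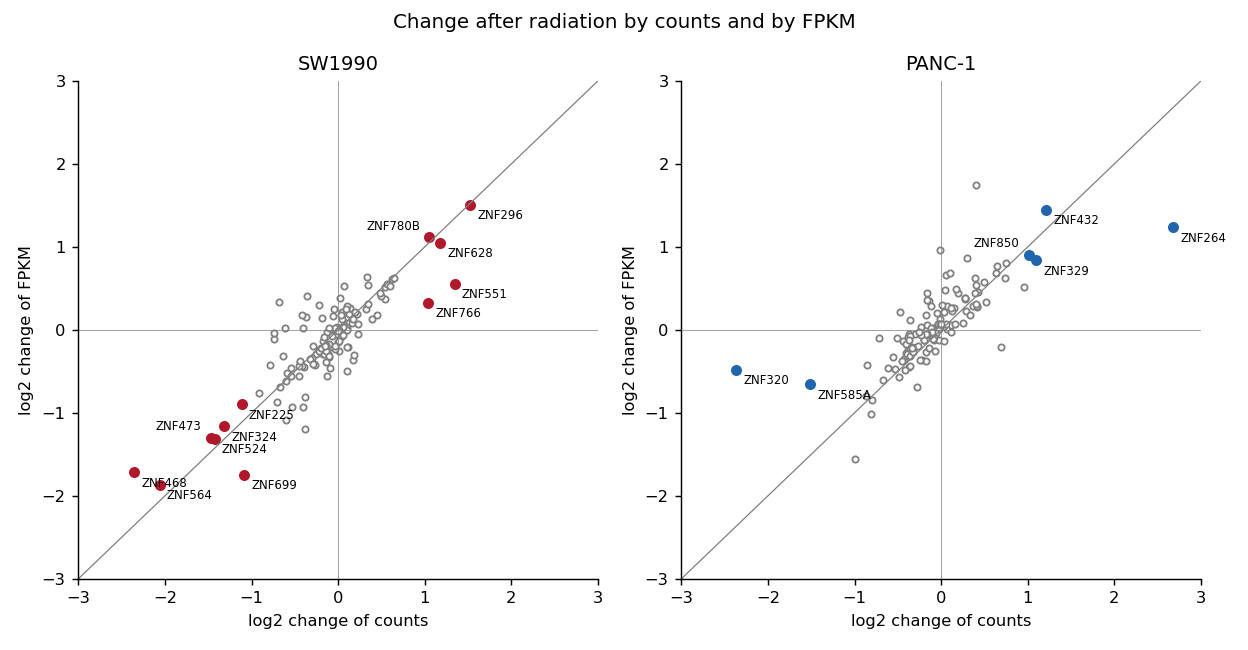
Log2 change after radiation by FPKM (vertical axis) against that by counts (horizontal axis) for the 128 members in each line, with filled points for members past the limits by counts and the line of equal change in grey. ZNF320, ZNF585A and ZNF264 in PANC-1 lie well off the line of equal change, on the side of a smaller FPKM change, and ZNF551 in PANC-1 (0.40 by counts, 1.75 by FPKM) on the other.

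ZNF468 and ZNF320 are adjacent on the minus strand in GRCh38, at chr19:52838008-52857649 and chr19:52863790-52897693. These spans do not overlap. By counts, ZNF468 changed in SW1990 only and ZNF320 in PANC-1 only, in the sense that each passed the limits in that line and not in the other. Of the 75-base stretches of their transcripts, untranslated parts included, 53.2% of those of ZNF468 and 73.0% of those of ZNF320 also occur in another gene, in both cases most often in the other member of the pair. The longest run of identical coding bases was 58. Modules of the pair that are most alike are given here, from residue 301 of ZNF468 and residue 331 of ZNF320, with the 3 bases that differ in capitals.
ZNF468: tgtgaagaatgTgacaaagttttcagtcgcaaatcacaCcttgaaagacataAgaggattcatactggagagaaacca
ZNF320: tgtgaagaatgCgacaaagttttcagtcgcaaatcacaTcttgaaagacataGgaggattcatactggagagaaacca
Summed over the pair, the counts were 1472 and 1071 in SW1990 and 1205 and 566 in PANC-1, or log2 changes of −0.47 and −0.96. How reads were divided between the pair was not tested. Other members with much shared sequence were ZNF709 with 78.9% and ZNF564 with 64.9% of their stretches in another gene, AC008758.1 and AC010422.6.

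No member passed the limits in both lines, and 43 of the 11159 genes with the same count minimum (0.385%) did. The changes of the lines had the same sign in 68 of 128 members (53.1%), against 55.3% of the 11159 genes with the same count minimum, and their Pearson r over members was −0.08 against 0.10 over those genes. Of the 68 members, 49 were lower and 19 higher in both lines. ZNF480 was the member nearest to an equal increase, with 291 and 450 counts in SW1990 and 229 and 325 in PANC-1, or log2 changes of 0.62 (0.41 to 0.84) and 0.64 (0.39 to 0.89). ZNF112 gave −0.67 (−1.09 to −0.25) and −0.87 (−1.24 to −0.51). ZNF101, whose SW1990 counts were 459 and 478, gave 0.05 and 0.75. These values lay under the 2-fold limit in both lines.

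The 4 libraries were also fitted together, with the line as a covariate (edgeR quasi-likelihood test, 18180 genes, 1 residual degree of freedom), so that the lines served as repeats of the radiation effect. At an adjusted p under 0.05 this fit called none of the 128 members, and 0% of all genes fitted. At an unadjusted p under 0.05 it gave 3 members (2.34%), against 5.46% of the 11159 genes. The 3 were ZNF564 with an unadjusted p from edgeR of 0.0486 and a log2 change of −1.20, ZNF480 with 0.0297 and 0.64, and ZNF551 with 0.0321 and 0.90, each of the same sign in both lines. The smallest adjusted p of a member was 0.942. In the scatter of the changes no member is past 2-fold in both lines, while ZNF585A at 0.50 in SW1990 and −1.52 in PANC-1 and ZNF432 at −0.46 and 1.21 have opposite signs. ZNF524, at −1.43 and 0.70 by counts, has the same sign in both lines by FPKM, at −1.31 and −0.21.

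**Figure D3:**
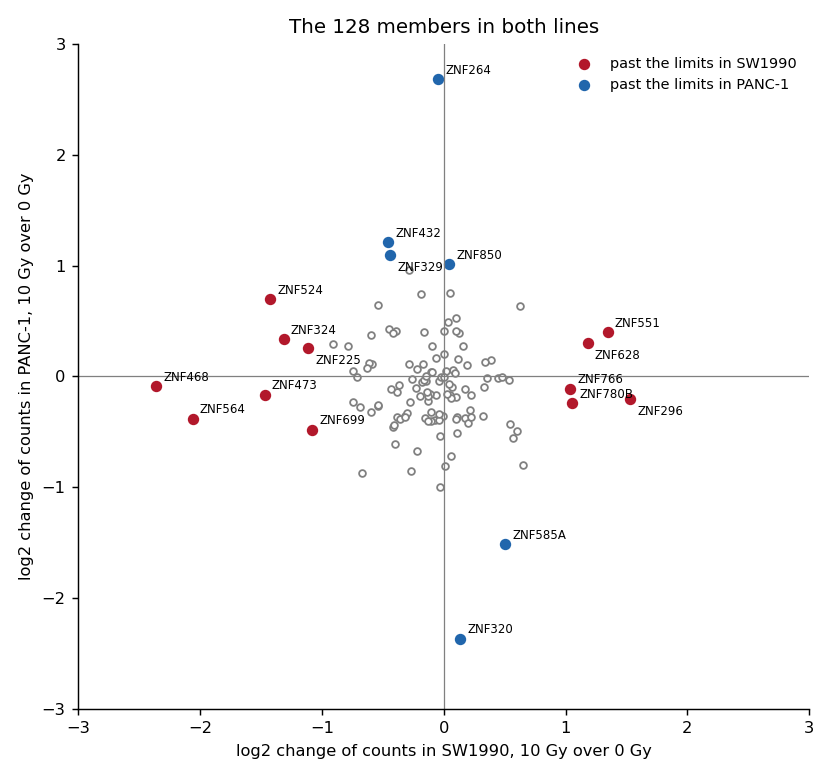
Log2 change of counts after radiation in PANC-1 (vertical axis) against SW1990 (horizontal axis) for the 128 members, 1 point each, coloured where a member passed the limits in a line. No point is past 1 on both axes, and some coloured points, such as ZNF432 (−0.46 and 1.21) and ZNF585A (0.50 and −1.52), lie in the quadrants of opposite sign.

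As a group the members shifted little. Their median log2 change was −0.10 in SW1990, with quartiles of −0.39 and 0.10, where the 11159 genes had a median of −0.00 and quartiles of −0.18 and 0.18. The 194 zinc finger genes of other chromosomes had a median of −0.05 and the 614 other genes of chromosome 19 one of 0.04. In PANC-1 the members' median was also −0.10, with quartiles of −0.36 and 0.13, beside −0.03 for the 11159 genes, −0.19 for the zinc finger genes of other chromosomes and 0.06 for the other genes of chromosome 19. By counts, 77 members were lower and 51 higher in SW1990, and 81 were lower and 47 higher in PANC-1, but by FPKM the PANC-1 median was 0.01, with 65 members higher, and scaled to total counts it was −0.01. The 100 KRAB-like members had medians of −0.10 in SW1990 and −0.11 in PANC-1, and the 26 others −0.12 and −0.04.

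The spread was wider than among genes at large, with an SD of 0.55 among members against 0.39 among the 11159 genes in SW1990, and 0.53 against 0.42 in PANC-1. Zinc finger genes of other chromosomes lay between, with an SD of 0.50 in SW1990 and 0.44 in PANC-1, and 10 of them (5.15%) passed the 2-fold limits in SW1990 and 9 (4.64%) in PANC-1. Members also had fewer reads, with a median of 1156 counts summed over the 4 libraries against 3013. The 95% counting interval lay above 0 for 23 members and below 0 for 40 in SW1990, and for 24 and 45 in PANC-1. In SW1990 these are 18.0% and 31.3% of members, beside 28.5% and 27.5% of the 11159 genes. In PANC-1 they are 18.8% and 35.2%, beside 28.3% and 35.3%, so the share below 0 there was that of genes at large. Transcripts of members were poor in G and C, at a median of 42.8% against 48.0% for the 11159 genes. Genes in the lowest 30% of GC content, which hold 65 members, had medians of −0.05 in SW1990 and −0.10 in PANC-1, and genes in the highest 30% had 0.05 and 0.08. The part of GC content in the members' medians was not tested.

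Along the chromosome, 114 members fell into 8 clusters, numbered from the short arm, and 14 lay outside them. In SW1990 the cluster medians ran from −0.33 in cluster 5, at chr19:43525497-44500524 in GRCh38, where 10 of 12 members were lower and 2 higher, to 0.11 in cluster 3, at chr19:19668796-24129961, where 7 of 10 were higher. By FPKM the SW1990 median of cluster 3 was 0.008 and that of cluster 7, at 0.13, was the highest. In PANC-1 they ran from −0.38 in cluster 4, at chr19:36182060-37817300, where 9 of 12 were lower, to 0.13 in cluster 3, where 6 of 10 were higher. Cluster 4 had a median of −0.03 in SW1990 by counts. By FPKM its medians were −0.25 in SW1990 and −0.07 in PANC-1, and the lowest PANC-1 median was that of cluster 5, at −0.098. Cluster 6, at chr19:51571298-53580269, held 2 members past the limits in each line among 21, and cluster 8, at chr19:57191500-58481230, 2 in each line among 25. In SW1990 cluster 7 held 2 among 9 and clusters 1, 2 and 5 held 1 each, and in PANC-1 cluster 4 held 2 among 12. The remaining medians by counts lay between −0.19 and 0.05 in both lines. Cluster 7, at chr19:55476332-56671783, held no KRAB-like member among its 9 and the transcripts richest in G and C, with a median of 64.9%. Its median changes were −0.02 in SW1990 and −0.01 in PANC-1. The highest mean FPKM of each cluster belonged to ZNF121, ZNF700, ZNF91, ZNF146, ZNF428, ZNF83, ZNF787 and ZNF587, in the order of the clusters, and none of these passed the limits in either line.

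The changes of neighbours in a cluster were close to uncorrelated after radiation. Over 106 pairs of a member and the next member of its cluster, the Pearson r of the log2 changes was −0.06 in SW1990 and 0.01 in PANC-1, and it was 0.03 and −0.12 over 74 pairs without members that overlap on the same strand. For the difference between the lines described below, r over the 106 pairs was 0.24. Neighbours share libraries and in part sequence. The plot along the chromosome gives each member's change in its place among its neighbours.

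**Figure D4:**
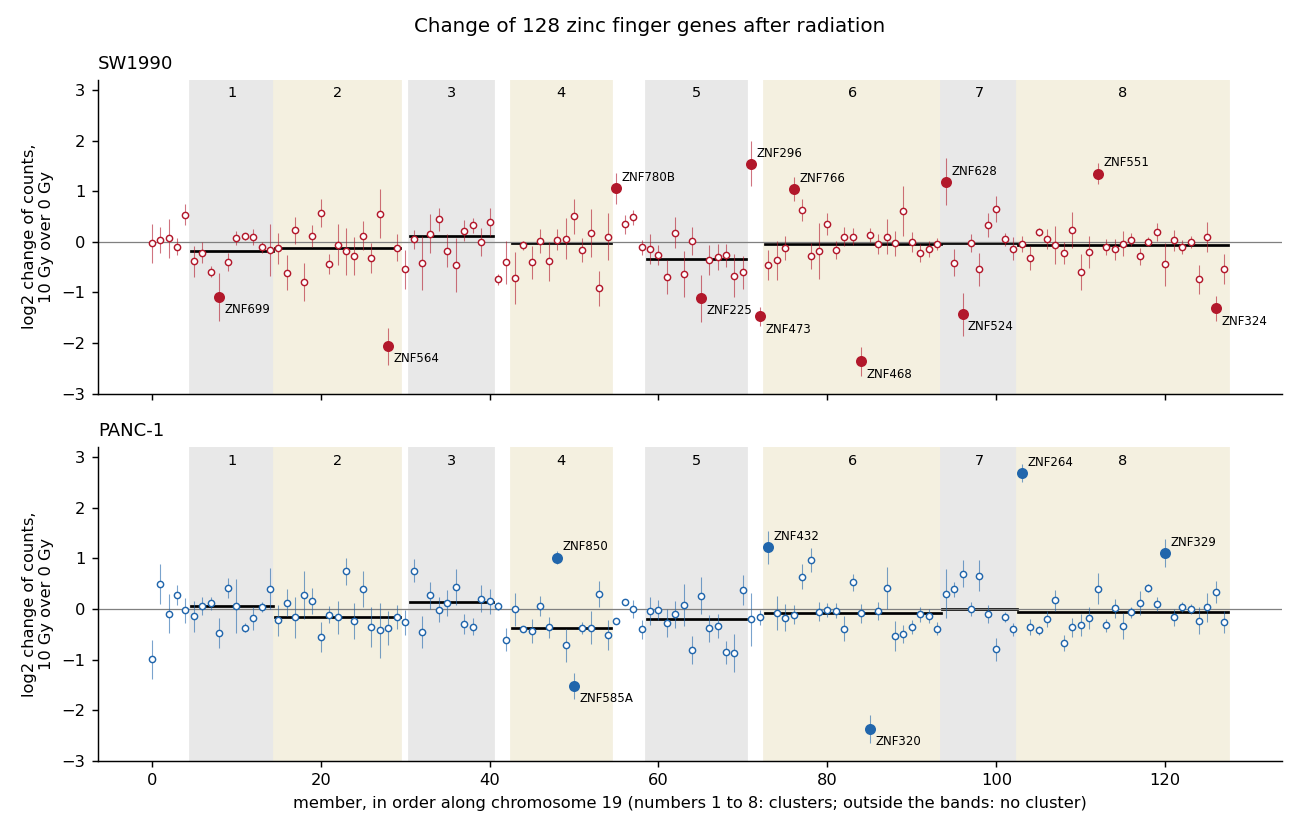
Log2 change of counts after radiation (vertical axes) of the 128 members in their order along chromosome 19 (horizontal axis), with 95% counting intervals, filled points past the limits, shaded clusters 1 to 8 and a black bar at each cluster median. Cluster medians lie between −0.38 and 0.13, and ZNF320 (−2.37) and ZNF264 (2.68) in PANC-1 lie far from the medians of their clusters.

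The lines were also compared with each other. In the 4-library fit, where the unirradiated and irradiated library of a line serve as its repeats, 42 members (32.8%) had an adjusted p under 0.05 between SW1990 and PANC-1, beside 41.8% of the 11159 genes and 44.7% of all genes fitted. No line had repeat cultures under the same treatment, so the p-values of this fit do not measure the spread between cultures of a line. The count minimum in all 4 libraries leaves out genes at or near 0 in a line, so these shares do not cover the family as a whole. Of the 42, 34 were higher in PANC-1 and 8 in SW1990. The 34 are 26.6% of members, beside 22.8% of the 11159 genes that were higher in PANC-1 at this limit. The median log2 ratio of SW1990 over PANC-1 was −0.28 over members and −0.04 over the 11159 genes. ZNF780B had 131 and 273 counts in SW1990 and 5717 and 4424 in PANC-1, a log2 ratio of −4.61 (adjusted p = 0.000838). Its neighbour ZNF780A had 391, 498, 5322 and 5308 counts in the same order, a log2 ratio of −3.49 (adjusted p = 0.00029). Exons of both overlap those of AC005614.2 on the same strand. ZNF701, with 62, 55, 490 and 431 counts, and the pseudogene ZNF702P, with 61, 93, 692 and 450, had log2 ratios of −2.87 and −2.77, and ZNF585B, ZNF181 and ZNF419 ratios of −2.11, −1.78 and −1.59, all with an adjusted p under 0.05. In the other direction, ZNF426 had 789 and 836 counts in SW1990 and 62 and 59 in PANC-1, a log2 ratio of 3.85 (adjusted p = 0.00039). ZNF57, ZNF823, ZNF814 and ZNF317 had log2 ratios of 1.31, 1.22, 1.11 and 0.78, with an adjusted p under 0.05. These members were named by the ratio of the unirradiated libraries and not by the fit. ZNF561 and ZNF567, not named by it, had fitted log2 ratios of 1.14 and −1.76, also with an adjusted p under 0.05. ZNF432, which was named by it, had a fitted log2 ratio of 0.23 and an adjusted p above 0.05. ZNF264, ZNF441 and ZNF585A were also named by the ratio of the unirradiated libraries, and their fitted ratios are not given here.

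The count minimum left out 132 chromosome 19 genes of the name pattern, and these were unevenly spread over the lines. At least 50 counts in both PANC-1 libraries were held by 63 of them, and at least 50 in both SW1990 libraries by 8. Taking members and left-out genes together, 191 had at least 50 counts in both PANC-1 libraries, and 41 of those (21.5%) had at most 3 counts in each SW1990 library, 34 of them exactly 0 in both. Among all 12555 genes of the table with at least 50 counts in both PANC-1 libraries the share was 3.54%, among zinc finger genes of other chromosomes it was 4.27% (9 of 211), and among other genes of chromosome 19 it was 4.07% (29 of 712). In reverse, 136 chromosome 19 zinc finger genes had at least 50 counts in both SW1990 libraries. Of these 1 (0.735%), ZNF470, had at most 3 in each PANC-1 library, against 3.15% of the 12506 genes of the table. Among zinc finger genes of other chromosomes this share was 0.966% (2 of 207), and among other genes of chromosome 19 it was 2.22% (15 of 676). This comparison was chosen after its values were seen, so it is a description without a test.

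The genes at or near 0 in SW1990 were found in 7 of the 8 clusters. Cluster 3 held 12 of them among 24 genes counted in PANC-1, cluster 4 held 7 of 23, cluster 6 held 8 of 33 and cluster 8 held 7 of 36, while cluster 1 held none of 11. ZNF43, in cluster 3, had 1282 and 1245 counts in the PANC-1 libraries and 0 in both SW1990 libraries. With a floor of 3 counts per library, it was at least 383-fold higher in unirradiated PANC-1 than in unirradiated SW1990. ZNF134 had 1211 and 884 counts in PANC-1, at least 362-fold higher without radiation, and ZNF347 had 1048 and 836, at least 313-fold higher, each with 0 in SW1990. ZNF350, also called ZBRK1 and known as a repressor that works with BRCA1, had 165 and 129 counts in PANC-1 and 0 in SW1990. ZNF304, a KRAB protein known to recruit silencing complexes, had 966 and 672 against 0. ZNF470 had 128 and 98 counts in SW1990 and 0 in both PANC-1 libraries. The highest FPKM of the 41 genes in an SW1990 library was 0.116, and 39 of them are annotated as protein coding.

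**Figure D5:**
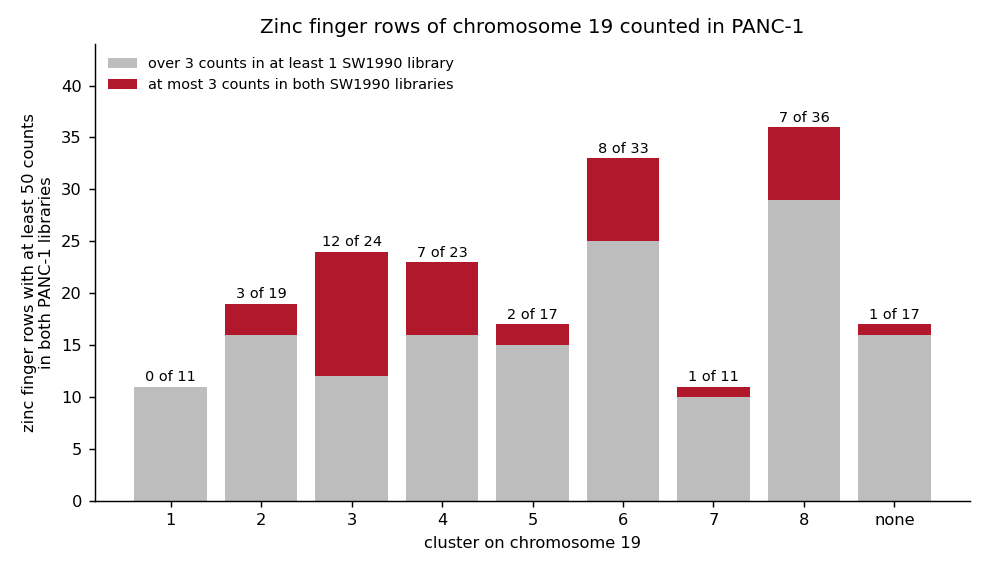
Number of chromosome 19 zinc finger genes with at least 50 counts in both PANC-1 libraries (vertical axis) in each cluster and outside the clusters (horizontal axis), split by their SW1990 counts. The share with at most 3 counts in both SW1990 libraries (red) runs from 0 of 11 in cluster 1 to 12 of 24 in cluster 3.

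The stretches before the start of a pair of genes at 0 in SW1990 and of the single gene at 0 in PANC-1 are shown, since CG pairs are the sites at which DNA methylation can act on a promoter. Methylation itself was not measured. Each run holds the 250 bases before the RefSeq start in GRCh38.p14, in the direction of transcription, with each CG in capitals. ZNF134 lies on the plus strand (chr19:57613992-57614241), ZNF347 on the minus strand (chr19:53159054-53159303) and ZNF470 on the plus strand (chr19:56567218-56567467).
ZNF134: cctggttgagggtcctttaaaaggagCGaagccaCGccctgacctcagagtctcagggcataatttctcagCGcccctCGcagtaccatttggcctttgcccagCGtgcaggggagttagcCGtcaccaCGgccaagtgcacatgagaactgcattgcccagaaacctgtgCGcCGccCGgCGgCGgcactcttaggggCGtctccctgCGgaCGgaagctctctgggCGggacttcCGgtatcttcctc
ZNF347: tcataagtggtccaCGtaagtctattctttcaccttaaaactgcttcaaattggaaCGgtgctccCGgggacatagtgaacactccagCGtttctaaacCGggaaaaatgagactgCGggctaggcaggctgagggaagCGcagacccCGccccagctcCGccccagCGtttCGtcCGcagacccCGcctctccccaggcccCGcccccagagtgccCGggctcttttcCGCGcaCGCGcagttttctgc
ZNF470: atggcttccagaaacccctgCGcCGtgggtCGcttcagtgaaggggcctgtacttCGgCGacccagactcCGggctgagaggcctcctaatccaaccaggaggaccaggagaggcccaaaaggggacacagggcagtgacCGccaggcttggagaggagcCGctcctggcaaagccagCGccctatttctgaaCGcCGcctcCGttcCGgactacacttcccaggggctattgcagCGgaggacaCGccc
CG was counted by its letters, which read the same on both strands, and occurs 17, 19 and 15 times in these runs. The same window of ZNF43 (chr19:21836183-21836432, minus strand), the gene with the largest bound above, holds 9, so the runs shown are not the poorest in CG. This window before the RefSeq start lies inside the span of ZNF43 in the deposited data, chr19:21804949-21852125. At least 10 CG were held by 51.9% of the 27305 promoters in the RefSeq table, by 91.4% of the 116 members matched there and by 71.1% of the 38 matched genes at or near 0 in SW1990. At least 20 CG were held by 32.1%, 36.2% and 21.1% of them, in the same order. The promoters of the RefSeq table were not filtered by counts, while the members were. The share among genes with the same count minimum was not computed. The median was 11 among all promoters, 16 among members and 13.5 among the genes at or near 0 in SW1990.

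Genes of a list made of the KRAB repressor complex and of other genes linked to silent chromatin were present throughout. Of 35 such genes tested, CBX1 passed the limits in SW1990 and none did in PANC-1, where 2.72% and 3.06% of the 11159 genes passed, so the list's count in SW1990 was near that of genes at large. CBX1, which encodes the HP1 beta protein that reads methylated histone H3, fell from 1653 to 561 counts in SW1990, a log2 change of −1.57, and had 5132 and 4154 counts in PANC-1. TRIM28, the scaffold itself, held 11499 and 10899 counts in SW1990 and 15993 and 16169 in PANC-1, with log2 changes of −0.08 and 0.15 by counts and −0.27 and 0.58 by FPKM. SETDB1 held 1440 and 1083 counts in SW1990, a log2 change of −0.42, and 1502 and 1390 in PANC-1, one of 0.02. The median over the list was −0.05 in SW1990 and 0.04 in PANC-1 by counts, and −0.11 and 0.12 by FPKM. Between the lines, CBX1 was lower in SW1990 with a fitted log2 ratio of −2.15. The fit uses irradiated and unirradiated libraries alike, so this ratio includes the fall of CBX1 in irradiated SW1990. In the unirradiated libraries alone, CBX1 was also lower in SW1990, with an FPKM of 35.0 against 81.0 in PANC-1. In the irradiated ones the FPKM values were 12.8 and 78.3.

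The labels were checked on 8 genes known to respond to radiation and on cell type markers. CDKN1A, the p21 inhibitor of the cell cycle, rose in SW1990 from 1229 to 4002 counts, and had 1282 and 782 in PANC-1. PLK2 rose in SW1990 from 419 to 1346 counts, with 1649 and 1629 in PANC-1. GDF15 had 6849 and 8740 counts in SW1990 and fell in PANC-1 from 8563 to 3611. HIST1H2AC, a replication histone gene, fell in both, from 3221 to 193 in SW1990 and from 3378 to 310 in PANC-1, and the other 4 passed the limits in neither line. The epithelial marker KRT18 was high in all libraries, at 30422, 36683, 20583 and 19834 counts, KRT19 held 6367, 8933, 5490 and 7817, and KRT8 was at 38674, 53301, 28483 and 27779. KRT7, of the same epithelial list, was low in all of them, at 99, 102, 145 and 97 counts. EPCAM held 7348 and 7552 counts in SW1990 and 108 and 113 in PANC-1, and the mesenchymal marker VIM held 17 and 0 in SW1990 and 82406 and 75166 in PANC-1. CDH1 held 9906, 14345, 59 and 65 counts and ZEB1 14, 66, 1394 and 1084, in the order of SW1990 and then PANC-1 and with the unirradiated library before the irradiated one. In the same order, the mesenchymal marker CDH2 held 0, 4, 333 and 301 counts. ZEB1 and the endothelial marker VWF, with 14 and 50 counts, rose in SW1990, and CLDN4 fell in PANC-1 from 96 to 9. COL1A1 held 103, 165, 965 and 1315 counts and CD68 31, 37, 967 and 583. The part of such marker differences in the members' values was not tested. The markers CD3E, DCN, CPA1, GCG, INS and APOA1 were at 0 in all 4 libraries, and PTPRC and PECAM1 at 2 counts in irradiated SW1990 and 0 elsewhere. The acinar marker PRSS1 held 12 and 8 counts in SW1990 and the liver marker ALB 4 and 12, both with 0 in PANC-1, and the fibroblast marker LUM held 2 in unirradiated PANC-1 and 0 elsewhere.

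Near the count minimum, the 5 members just inside it were ZNF709, ZNF738, ZNF565, ZNF14 and ZNF701, whose lowest library held 51 to 55 counts. The 5 genes just outside were ZNF175, ZNF30, ZNF235, ZNF791 and ZNF222, whose lowest library held 43 to 49. The members inside had at least 1 library with few reads, so their changes carry wide counting intervals: ZNF709, with 62 and 91 counts in SW1990, had a log2 change of 0.55 (0.07 to 1.04) there.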

How the data were processed

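RNA of 4 libraries was sequenced by the study. According to the submitters' processing notes, CASAVA 1.8, FastQC 0.11.2, Trimmomatic 0.36, HISAT2 2.0, StringTie 1.3.3b and DESeq2 1.12.4 were used with GRCh38. The authors deposited, in a single table of 59263 rows, raw counts per gene and FPKM values, and the counting tool is not given in the sources used here. Rows without a gene (1089) were left out of all totals. The methods name a poly(A) kit and the labels ribosomal RNA depletion.

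Counts of the libraries of a line were compared by a 2-sided conditional binomial test on TMM-scaled totals (scipy 1.17.1), over genes with at least 20 counts in sum, with Benjamini-Hochberg q-values over all. Limits were q under 0.001 and a fold above 2, as in the study's methods. The 4 libraries were fitted together with edgeR 4.0.16 (~ line + treatment, filterByExpr, R 4.3.3). DESeq2 1.42.0 and limma 3.58.1 were run as alternatives. Both procedures were also run on simulated data, and how well they perform on these 4 libraries was not tested. A count or FPKM of 0 was set to 0.01 for fold changes within a line. Clusters are runs of genes of the name pattern with starts at most 0.5 Mb apart and at least 5 members. KRAB-like stretches, modules, overlaps and shared 75-base stretches were computed from GENCODE 29, in which 57836 genes were found, 96.8% with the same coordinates.

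Genes were named by rule: members past the limits and the 10 largest count changes in each line. Added in each direction were the 5 largest mean changes of the same sign and the 5 largest differences between the lines. Also named were the 6 highest FPKM, the highest of each cluster and the 5 on each side of the count minimum. The last were the 8 largest ratios between the unirradiated libraries of the lines in each direction. ZNF441 and ZNF581, described nowhere above, also fall under these rules. Their log2 changes by counts were −0.79 and 0.65 in SW1990 and 0.27 and −0.80 in PANC-1. The gene ZNF808 falls under these rules, and ZNF43, ZNF134, ZNF347, ZNF350, ZNF304 and ZNF470 were chosen after their values were seen. Outside these rules, ZNF224, ZNF567 and ZNF180 were named for an FPKM change past 2-fold, and ZNF561 for its fitted ratio between the lines. The lists of silent chromatin, radiation response and marker genes, like the members, were chosen with earlier results of these data known.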

Additional observations from a re-analysis of the deposited data

Results flagged for a closer look

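For 6 members past the limits in a line, the counting intervals lay on opposite sides of 0 in SW1990 and PANC-1. The same was not counted over all genes past the limits, so the 6 have no background share beside them. With 1 library per group the difference between the lines was not tested. The log2 change in SW1990 minus that in PANC-1 was 2.02 for ZNF585A (121 and 172 counts in SW1990, 529 and 169 in PANC-1) and 1.29 for ZNF780B (131 and 273, 5717 and 4424). It was −1.67 for ZNF432 (224 and 164, 120 and 254) and −2.12 for ZNF524 (182 and 68, 195 and 289). It was −1.54 for ZNF329 (115 and 85, 164 and 320) and −1.65 for ZNF324 (448 and 181, 335 and 386). By FPKM, ZNF524 had a log2 change of −0.21 in PANC-1, so its opposite direction there rests on the counts. Over all members, 19 had intervals on opposite sides of 0 and 16 had intervals on the same side. Such intervals were not counted over all genes with the same count minimum, so the 19 and 16 also lack a background share. By sign alone, 53.1% of members and 55.3% of all genes with that count minimum changed in the same direction in both lines. Exons of ZNF780B, ZNF585A, ZNF432 and ZNF324 overlap a counted gene on the same strand, and those of ZNF524 the gene FIZ1 on the opposite strand.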

How the results depend on the processing

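The counts of members past the limits depended on the settings. In SW1990 the 12 became 6 with at least 100 counts in each library, 20 with a fold above 1.5, 1 with an assumed coefficient of variation of 0.2 between repeats, and 4 of the 75 members overlapping no gene on either strand. In PANC-1 the 6 became 10 with at least 20 counts in each library, 20 with a fold above 1.5, 2 with the assumed coefficient of variation, 3 of those 75 and 2 where FPKM also had to pass the fold. Of the 92 members that overlap no gene on the same strand, 6 passed in SW1990 and 3 in PANC-1. The share of all genes was not counted under the changed count minimums, the assumed coefficient of variation or the overlap settings. Whether members exceeded genes at large under these was therefore not tested. The median change of members ran from −0.13 to −0.06 over the alternatives in SW1990 and from −0.14 to 0.01 in PANC-1, where it was above 0 by FPKM only. The cluster 4 median in PANC-1 was −0.073 by FPKM and the cluster 7 median 0.30 with clusters split at 0.25 Mb. Members with an unadjusted p under 0.05 for radiation were 0 by the DESeq2 Wald test, and those with an adjusted p under 0.05 between the lines were 27 by it and 26 with all genes with at least 1 count. With at least 100 counts in the line that holds them, 26 genes were at or near 0 in SW1990 and 0 in PANC-1. Scaling to total counts moved every log2 change by −0.03 in SW1990 and 0.09 in PANC-1. The either-strand, shared sequence and combined FPKM settings, and those for genes at or near 0, were added after seeing the data. The 4-library fit pairs the libraries of a line through its line term, and the labels give no replicate numbers for another pairing. Leaving a library out of it would leave no residual degree of freedom. With 1 library per group, differences between cultures cannot be told apart from radiation.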

Other observations

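Of the 41 genes at or near 0 in SW1990, 4 passed the radiation limits in PANC-1, where 3.06% of genes with the count minimum and 5.22% of all genes tested passed. ZNF570 rose from 114 to 313 counts, a log2 change of 1.59 (95% counting interval 1.27 to 1.91). ZNF614 fell from 305 to 59 counts, a log2 change of −2.24 (−2.67 to −1.83). ZNF525 went from 796 to 320 counts and ZNF530 from 275 to 125, log2 changes of −1.18 and −1.01. By FPKM the log2 changes were 0.41 for ZNF570, −0.60 for ZNF614, −0.56 for ZNF525 and −0.08 for ZNF530, so none of the 4 reached a 2-fold change on that scale. These genes lie outside the count minimum of the members and were named after their values were seen.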
